A study of Mus musculus with 9 samples.

Results

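The 10 genes described here are the 3 Gadd45 genes (Gadd45a, Gadd45b and Gadd45g), the CDK inhibitor genes Cdkn1a (p21) and Cdkn1b (p27), and 5 genes linked to p53 or to growth arrest, namely Mdm2, Trp53inp1, Sesn1, Ccng1 and Ccng2. They were taken by symbol from the count table, where all 10 were found among 55450 gene identifiers, and all 10 passed the filter on low counts, which left 14246 genes to test. RNA came from IMM cells, an immortalized mouse macrophage line labelled WT. The groups are cells left without LPS (0 min, the control) and cells given 100 ng/mL lipopolysaccharide (LPS, a bacterial outer-membrane component sensed through Tlr4) for 30 min or for 60 min, with 3 libraries each, called biological replicates in the design text. No library came from cells kept for 30 or 60 min without LPS, so the agent, the handling and the passage of time cannot be told apart. The line is a single cell line, and how it was immortalized is not given in the sources used here.

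Proteins of the Gadd45 family are small stress sensors without enzymatic activity. They bind and switch on the kinase Map3k4 upstream of p38 and JNK, and they also bind the replication clamp PCNA and p21. The inhibitor p21 blocks cyclin-CDK complexes and is the best known transcriptional target of p53 in arrested cells, but its gene is also switched on without p53 by many growth and differentiation signals. Mdm2 is both a target of p53 and the ubiquitin ligase that destroys it, which closes a feedback loop. In myeloid cells these genes are known from 2 settings: the DNA damage response, and the early response to differentiation or inflammatory signals, in which Gadd45b was first found.

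Libraries held 26867428 to 30402308 counts. Levels are given in CPM, counts scaled to the same total in every library, on library totals adjusted by TMM, a method that evens out composition between libraries, and 10 counts were worth about 0.35 CPM. The 7 macrophage markers fixed for the check were present, with a summed level of 1790 to 1860 CPM at 0 min, 1850 to 1880 CPM at 30 min and 1820 to 1900 CPM at 60 min on plain totals. No marker of fibroblasts, T cells, B cells, neutrophils or epithelium passed 0.383 CPM in any library, and Col3a1, Dcn, Cd3e, Cd8a, Ms4a1, Ly6g, S100a9 and Krt8 had 0 counts. As a check of the treatment, the inflammatory gene Tnf averaged 47.5 ± 4.27 CPM at 0 min, 341 ± 91.4 CPM at 30 min and 560 ± 37.5 CPM at 60 min (SD, n = 3 each). Since these are bulk libraries, fewer cells making a transcript and less of it per cell cannot be told apart.

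At 30 min of LPS, 5 of the 10 genes were higher than at 0 min and 0 were lower. The 5 were Cdkn1a, Gadd45g, Gadd45a, Ccng2 and Mdm2, in falling order of their log2 change. At 60 min 6 were higher, the same 5 genes with Gadd45b added, and 2 were lower, Sesn1 and Cdkn1b. Genes were called by edgeR's quasi-likelihood test at a Benjamini-Hochberg adjusted p under 0.05 over all 14246 genes, among which 8.18% were called at 30 min (4.84% higher, 3.35% lower) and 25% at 60 min (13.3% higher, 11.7% lower). The count of 0 lower genes at 30 min was also 0 by DESeq2 and by limma-voom, and 1, Gadd45b, at an unadjusted p under 0.05. Between 30 and 60 min, where 16.5% of all genes were called (8.87% higher, 7.65% lower), 4 of the 10 rose further (Gadd45a, Mdm2, Gadd45b and Cdkn1a) and 2 fell (Sesn1 and Cdkn1b). Ccng1 and Trp53inp1 were called in none of the 3 comparisons. The 3 libraries of a time lay wholly apart from those of 0 min for 8 of the 10 genes at 30 min (7 above, 1 below) and 9 at 60 min (7 above, 2 below), as they did for 25.9% of all genes at 30 min (14.1% above, 11.7% below) and 38.3% at 60 min (19.6% above, 18.7% below). Between 30 and 60 min they did so for 6 (4 above, 2 below), against 33.8% of all genes (17.1% above, 16.7% below). The median log2 change of the 10 genes was 0.48 at 30 min and 0.76 at 60 min, beside 0.01 and 0 over all genes tested.

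**Figure D1:**
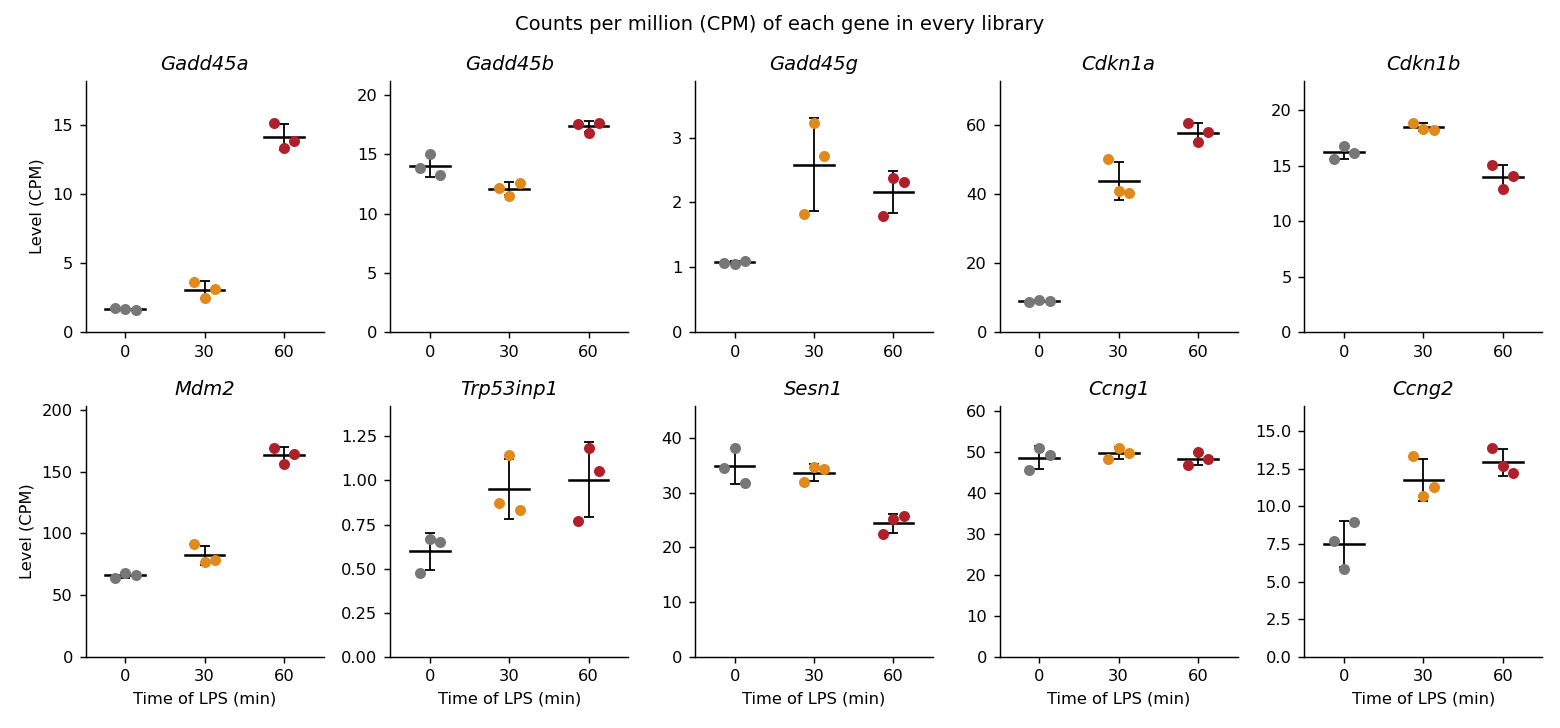
Level in CPM of each of the 10 genes (vertical axes, all starting at 0) against time of LPS in min; each point is 1 of 3 libraries per time, and the black bar and whiskers give the mean and SD. Gadd45a lies between 13.4 and 15.2 CPM in the 60 min libraries, above the 30 min libraries (2.46 to 3.67 CPM) and the 0 min libraries (1.62 to 1.76 CPM), while the times overlap for Ccng1.

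Gadd45a, the family member with the best known p53 response, was the member that climbed most. It stood at 1.76, 1.69 and 1.62 CPM in the 0 min libraries, at 3.67, 2.46 and 3.11 CPM in the 30 min libraries and at 15.2, 13.4 and 13.8 CPM in the 60 min libraries. No library of 1 time overlapped with those of another, and most of the climb fell in the later interval. The log2 change was 0.87 at 30 min (SE 0.15, edgeR adjusted p = 0.00217) and 3.06 at 60 min (SE 0.13, edgeR adjusted p = 4.32e-10), and the step between 30 and 60 min was itself called (2.2, SE 0.12, edgeR adjusted p = 4.97e-08). That step was the 34th highest log2 change among the 14246 genes. Gadd45a (ENSMUSG00000036390.8) lies on chromosome 6, 67035096 to 67037457, on the minus strand of GRCm38, and overlaps the antisense locus E230016M11Rik over 859 bases. The antisense locus held 136, 151 and 122 counts over the 3 libraries of 0, 30 and 60 min and did not follow the course of Gadd45a. The kit marks strand, but the strand setting of the counting is not given in the sources used here.

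Gadd45b, known as a myeloid early-response gene and as an NF-kB target in other settings, was already the most abundant of the family and moved little. It stood at 13.8, 15.0 and 13.2 CPM at 0 min, at 12.2, 11.5 and 12.6 CPM at 30 min and at 17.6, 16.8 and 17.6 CPM at 60 min. The 60 min libraries were all the highest and the 30 min libraries all the lowest. At 30 min the log2 change was -0.22 (95% interval -0.37 to -0.06) and was not called (edgeR adjusted p = 0.0848). At 60 min Gadd45b was 1.24-fold higher than at 0 min (log2 change 0.31, SE 0.07, edgeR adjusted p = 0.00458). From 30 to 60 min it rose 1.44-fold (log2 change 0.52, SE 0.07, edgeR adjusted p = 0.000125). Gadd45b (ENSMUSG00000015312.9) lies on chromosome 10, 80930073 to 80932204, plus strand.

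Gadd45g, the member best known for roles in differentiation and cytokine signalling, was the scarcest of the 3 in CPM. Its libraries held 29, 30 and 34 counts at 0 min, 52, 93 and 75 at 30 min and 51, 70 and 68 at 60 min. Both LPS times lay above all 0 min libraries, and the 30 and 60 min libraries overlapped. It was 2.4-fold higher at 30 min (log2 change 1.26, SE 0.22, edgeR adjusted p = 0.00208) and 2.01-fold higher at 60 min (edgeR adjusted p = 0.00429), with a change of -0.26 between these times that was not called (95% interval -0.69 to 0.17). Gadd45g (ENSMUSG00000021453.2) lies on chromosome 13, 51846678 to 51848468, plus strand.

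Set against transcript length, the family's make-up shifted. CPM were divided by the length in kb of all annotated exons, to set genes side by side. That length can exceed the main annotated transcript, and the order of genes can depend on this choice. The summed Gadd45 level was 10.7 ± 0.571 CPM per kb at 0 min, 11.6 ± 0.371 at 30 min and 20.8 ± 0.511 at 60 min (SD, n = 3 each). Gadd45b made up 82.5% ± 1 of that sum at 0 min, 65.8% ± 2.19 at 30 min and 52.6% ± 0.47 at 60 min. Gadd45a made up 8.96% ± 0.484, 15.1% ± 3.08 and 38.6% ± 1.77 at the same times, and Gadd45g 8.57% ± 0.645, 19.1% ± 5.24 and 8.87% ± 1.48. The shares of Gadd45a and Gadd45b did not overlap between any of the 3 times, while the Gadd45g share was highest in all 30 min libraries.

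The promoter windows of the 3 genes are shown because the paralogs differed in course, from 250 bases before to 50 after the RefSeq start on GRCm38.p6, 5′ to 3′ on the gene's strand. Capitals mark matches to the motifs searched. Both strands were searched. The letters TATAAA stood for the box bound by TBP, CCAAT for the box bound by NF-Y and GTAAACA for a FoxO site. An AP-1 site was read as TGANTCA and a cAMP response element as TGACGTCA, and its core, TGACG, was also counted alone, although every full element contains it. The NF-kB consensus, the CArG box and the p53 decamer, of which a full p53 site needs a pair, allow several letters at some places and are given by name.
Gadd45a, chr6:67037358-67037657, minus strand: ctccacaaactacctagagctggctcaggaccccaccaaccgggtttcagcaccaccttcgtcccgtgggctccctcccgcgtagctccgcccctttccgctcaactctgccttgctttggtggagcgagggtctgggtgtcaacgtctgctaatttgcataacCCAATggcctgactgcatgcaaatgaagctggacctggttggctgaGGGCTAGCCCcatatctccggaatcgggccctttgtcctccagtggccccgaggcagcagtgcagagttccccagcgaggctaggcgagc
Gadd45b, chr10:80929841-80930140, plus strand: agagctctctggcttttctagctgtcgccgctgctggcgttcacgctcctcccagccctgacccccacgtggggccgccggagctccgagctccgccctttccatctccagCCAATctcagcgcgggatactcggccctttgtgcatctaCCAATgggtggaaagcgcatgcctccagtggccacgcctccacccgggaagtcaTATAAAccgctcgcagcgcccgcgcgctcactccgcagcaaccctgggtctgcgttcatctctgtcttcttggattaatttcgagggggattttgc
Gadd45g, chr13:51846425-51846724, plus strand: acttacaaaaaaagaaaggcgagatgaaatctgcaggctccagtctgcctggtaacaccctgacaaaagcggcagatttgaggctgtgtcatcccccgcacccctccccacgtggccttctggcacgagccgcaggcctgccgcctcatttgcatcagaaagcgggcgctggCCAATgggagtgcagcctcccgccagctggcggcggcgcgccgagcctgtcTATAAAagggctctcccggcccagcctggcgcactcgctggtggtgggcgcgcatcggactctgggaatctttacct
All 3 windows hold a CCAAT box on the gene's own strand, a motif found on either strand in 37.4% of 32851 mouse promoter windows of the same length. Gadd45b and Gadd45g hold a TATA box, starting at positions -46 and -27 from the RefSeq start (13.6% of all windows hold one), and Gadd45a holds none with these letters. Gadd45a holds a p53 decamer match starting at position -40 (8.36% of all windows). Of the 10 genes, 9 had a RefSeq window, and 4 of the 9 hold a p53 decamer match (Gadd45a, Mdm2, Sesn1 and Ccng1). The set of genes was picked in part for a link to p53. No NF-kB consensus, CArG box, AP-1 site or cAMP response element match lay in any of the 9 windows, against 8.46%, 1.63%, 7.81% and 1.79% of all windows. For Ccng2 the RefSeq start lies 316 bases from the start of the main annotated transcript, and its window does not cover that start. A match is a string of letters and does not show binding, and sites outside the window were not searched.

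Cdkn1a had the largest early rise of the 10 genes and rose a little more by 60 min. It stood at 8.80, 9.21 and 9.09 CPM in the 0 min libraries, at 50.3, 41.0 and 40.4 CPM in the 30 min libraries and at 60.7, 55.1 and 58.0 CPM in the 60 min libraries, with no overlap between times. The fold change was 4.86 at 30 min (log2 2.28, SE 0.08, edgeR adjusted p = 2.54e-10) and 6.41 at 60 min (log2 2.68, SE 0.08, edgeR adjusted p = 2e-11). The later step was small but called (log2 0.4, SE 0.07, edgeR adjusted p = 0.00114), so most of the change on the log2 scale was present by 30 min, the opposite order to Gadd45a. Among all tested genes its log2 change ranked 86th from the top at 30 min and 117th at 60 min. Cdkn1a (ENSMUSG00000023067.14) lies on chromosome 17, 29090976 to 29100727, on the plus strand; a locus annotated on the other strand, AC167363.2, overlaps it over 1046 bases and held 1, 12 and 13 counts in all at 0, 30 and 60 min.

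Cdkn1b, which encodes p27, the Cip/Kip inhibitor that holds resting cells out of the cycle, went another way. Its 0 min libraries held 15.7, 16.8 and 16.1 CPM, its 30 min libraries 18.9, 18.3 and 18.2 CPM and its 60 min libraries 15.0, 12.9 and 14.1 CPM. The 30 min libraries were all highest and the 60 min libraries all lowest. The early difference (log2 change 0.19, 95% interval 0.04 to 0.33) was not called (edgeR adjusted p = 0.117). The fall from 30 to 60 min was called (log2 change -0.4, SE 0.07, edgeR adjusted p = 0.000957). The level at 60 min was lower than at 0 min by a narrow margin (log2 change -0.21, edgeR adjusted p = 0.0382), a call lost with DESeq2 (adjusted p = 0.0765), with the replicate number as a block (0.0587) and on leaving out any one of the 0 min libraries, the second library of 30 min, or either the second or the third library of 60 min (0.0507 to 0.156). It was also not called in the authors' deposited table (log2 change -0.21, adjusted p = 0.148). Cdkn1b (ENSMUSG00000003031.14) lies on chromosome 6, 134920401 to 134925513, plus strand.

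Per kb of all annotated exons the 2 inhibitors changed places. Cdkn1a averaged 2.54 ± 0.0586 CPM per kb at 0 min against 3.56 ± 0.13 for Cdkn1b. At 60 min it averaged 16.3 ± 0.793 against 3.08 ± 0.238 (SD, n = 3 each). The genes did not overlap at either time. The order at 0 min depends on the length used. All exons of Cdkn1a cover 3553 bases and its main transcript 2080, while Cdkn1b has 4552 on both. On main transcripts Cdkn1a would already stand above Cdkn1b at 0 min.

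Mdm2, the ubiquitin ligase for p53, rose at both times, most of it in the later interval. Its level was 64.1, 67.5 and 65.9 CPM at 0 min, 91.2, 76.8 and 78.5 CPM at 30 min and 169, 156 and 164 CPM at 60 min, again with no overlap between times. It was 1.25-fold higher at 30 min (log2 change 0.32, SE 0.06, edgeR adjusted p = 0.00279) and 2.48-fold higher at 60 min (1.31, SE 0.06, edgeR adjusted p = 4.95e-10). The step from 30 to 60 min was 1.99-fold (edgeR adjusted p = 5e-08). Mdm2 (ENSMUSG00000020184.15) lies on chromosome 10, 117688875 to 117710758, on the minus strand. Per kb of all annotated exons it shared the top of the 10 genes with Ccng1 at 0 min, where their libraries overlapped. It stood alone at 60 min with 32.1 ± 1.34 CPM per kb. The tie at 0 min depends on the length used. All exons of Mdm2 cover 5083 bases and its main transcript 3099, while Ccng1 has 3512 on both. On main transcripts Mdm2 would stand above Ccng1 at 0 min.

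The promoter windows of Cdkn1a and Mdm2, the abundant genes that rose most, follow with the same marking. For Cdkn1a, which has 2 RefSeq starts, the start nearest to the main annotated transcript was used.
Cdkn1a, chr17:29093519-29093818, plus strand: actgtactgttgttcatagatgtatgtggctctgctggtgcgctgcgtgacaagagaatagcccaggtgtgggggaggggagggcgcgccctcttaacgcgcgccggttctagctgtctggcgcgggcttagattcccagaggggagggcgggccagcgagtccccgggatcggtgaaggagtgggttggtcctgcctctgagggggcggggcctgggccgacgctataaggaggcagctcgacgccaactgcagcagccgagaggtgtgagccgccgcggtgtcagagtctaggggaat
Mdm2, chr10:117710709-117711008, minus strand: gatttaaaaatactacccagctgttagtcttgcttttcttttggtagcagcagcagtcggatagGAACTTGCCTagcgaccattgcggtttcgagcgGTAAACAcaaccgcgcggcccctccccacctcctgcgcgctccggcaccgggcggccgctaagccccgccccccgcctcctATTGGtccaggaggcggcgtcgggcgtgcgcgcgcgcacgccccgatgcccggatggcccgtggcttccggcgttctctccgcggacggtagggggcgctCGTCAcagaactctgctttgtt
The Cdkn1a window holds no match to any motif searched. The Mdm2 window holds a p53 decamer at position -186, a FoxO site at -153 (3.65% of all windows) and a CCAAT box on the other strand. It also holds a TGACG core on the other strand, 29 bases past the start (20.8% of all windows).

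The 2 atypical cyclins parted. Ccng1, a p53 target that binds protein phosphatase 2A, averaged 48.7 ± 2.77 CPM at 0 min, 49.8 ± 1.45 CPM at 30 min and 48.4 ± 1.55 CPM at 60 min (SD, n = 3 each). The times overlapped, and the log2 change at 60 min was -0.01 with a 95% interval of -0.11 to 0.09 (edgeR adjusted p = 0.923). Ccng2, an atypical cyclin known as a FoxO target that is linked to arrest without needing p53, held 7.70, 5.87 and 8.96 CPM at 0 min, 13.4, 10.7 and 11.3 CPM at 30 min and 13.9, 12.7 and 12.2 CPM at 60 min. All LPS libraries lay above all 0 min libraries. Ccng2 was 1.57-fold higher at 30 min (log2 change 0.65, SE 0.13, edgeR adjusted p = 0.00594) and 1.72-fold higher at 60 min (edgeR adjusted p = 0.000412), and the change between these times was not called (0.14, 95% interval -0.13 to 0.4). Ccng1 (ENSMUSG00000020326.7) lies on chromosome 11, 40748552 to 40755311, minus strand, and Ccng2 (ENSMUSG00000029385.14) on chromosome 5, 93267257 to 93276231, plus strand.

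Sesn1, a sestrin and p53 target that restrains growth signalling through mTORC1, was the member that fell most. It held 34.5, 38.3 and 31.7 CPM at 0 min, 31.9, 34.8 and 34.3 CPM at 30 min and 22.5, 25.2 and 25.7 CPM at 60 min. Libraries of 0 and 30 min overlapped, and the 60 min libraries lay below both. The log2 change was -0.05 at 30 min (95% interval -0.2 to 0.1) and -0.51 at 60 min (SE 0.07, edgeR adjusted p = 9.92e-05), with a fall of -0.46 from 30 to 60 min (SE 0.07, edgeR adjusted p = 0.000415). A locus annotated on the same strand within the span of Sesn1, 9930024M15Rik (2584 bases), held 245, 194 and 199 counts in all at 0, 30 and 60 min. Sesn1 (ENSMUSG00000038332.13) lies on chromosome 10, 41809935 to 41908424, plus strand.

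Trp53inp1, which encodes a p53-induced nuclear protein, was the scarcest of the 10, with 13, 19 and 20 counts at 0 min, 25, 33 and 23 at 30 min and 22, 35 and 31 at 60 min. All LPS libraries lay above all 0 min libraries. Neither difference was called: the log2 change was 0.66 at 30 min (95% interval 0.08 to 1.24, edgeR adjusted p = 0.169) and 0.74 at 60 min (0.17 to 1.31, adjusted p = 0.0577), which was called without 60 min replicate 1 (0.0416). Trp53inp1 (ENSMUSG00000028211.11) lies on chromosome 4, 11156431 to 11174379, plus strand.

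**Figure D2:**
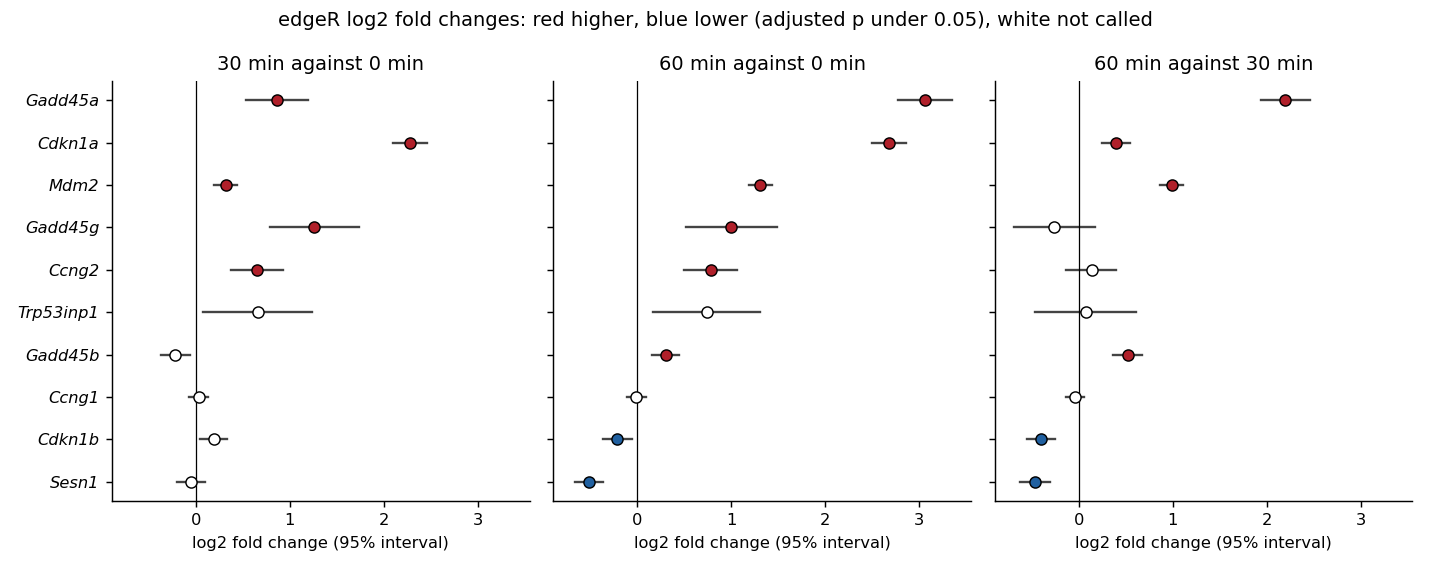
edgeR log2 fold change (horizontal axis) with its 95% interval for each of the 10 genes, ordered by the 60 min change, in 3 panels, 1 for each pair of times; red points were called higher, blue points lower, and white points were not called. Cdkn1a leads at 30 min (2.28), Gadd45a leads at 60 min (3.06) and from 30 to 60 min (2.2), and Sesn1 is lowest at 60 min (-0.51).

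The order of the 10 levels changed with time. On the per-length scale at 0 min the order from the top was Ccng1, Mdm2, Gadd45b, Sesn1, Cdkn1b, Cdkn1a, Ccng2, Gadd45a, Gadd45g and Trp53inp1, and the libraries overlapped within the neighbouring pairs Ccng1 and Mdm2, Gadd45b and Sesn1, and Gadd45a and Gadd45g. At 30 min Mdm2 led and Cdkn1a had moved up to the third place, with overlap between Ccng1 and Cdkn1a and along the run Gadd45g, Ccng2 and Gadd45a. At 60 min the order was Mdm2, Cdkn1a, Ccng1, Gadd45b, Gadd45a, Sesn1, Cdkn1b, Ccng2, Gadd45g and Trp53inp1, and no neighbours overlapped. The ends were 32.1 ± 1.34 CPM per kb for Mdm2 and 0.155 ± 0.0327 for Trp53inp1. These orders and overlaps hold for the length of all annotated exons. On main transcripts Mdm2 would lead at 0 min too, and Cdkn1a would stand above Cdkn1b there. Other places would shift as well. Sesn1 would stand above Gadd45b at 0 min, Cdkn1a above Ccng1 at 30 min and Ccng2 above Cdkn1b at 60 min. The libraries of Ccng1 and Gadd45b would overlap at 60 min.

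**Figure D3:**
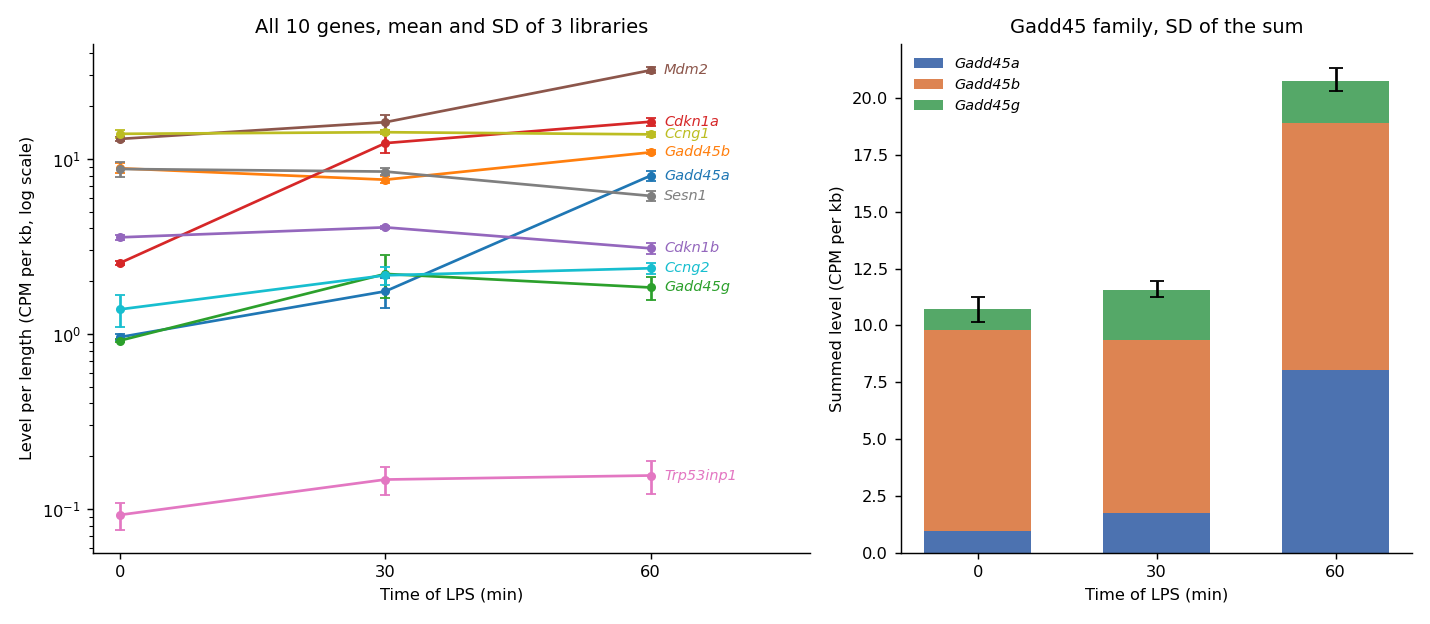
Left, mean level per length of the 10 genes in CPM per kb of annotated exon (log axis) against time of LPS, with SD over 3 libraries. Right, Gadd45 levels in CPM per kb stacked to the family sum with the SD of the sum; the sum is 20.8 CPM per kb at 60 min, and Gadd45a grows to 38.6% of it.

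Libraries of 30 min differed among themselves. Of the 5 genes called higher at 30 min, 4 (Cdkn1a, Gadd45a, Mdm2 and Ccng2) were highest in 30 min replicate 1, and Gadd45g was lowest there. The treatment check genes Tnf, Nfkbia and Cxcl2 were highest in the same library. The part of this library in the results was measured by leaving it out: the log2 changes at 30 min were then 2.17 for Cdkn1a, 0.72 for Gadd45a, 0.24 for Mdm2, 0.55 for Ccng2 and 1.46 for Gadd45g, and all 5 were still called.

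The authors' deposited tables list the 10 genes at both times. Their DESeq2 log2 changes were 2.27 and 2.68 for Cdkn1a, 0.86 and 3.07 for Gadd45a, 0.31 and 1.31 for Mdm2, and -0.05 and -0.51 for Sesn1, at 30 and 60 min. In the authors' deposited tables the adjusted p was under 0.05 for 5 genes at 30 min and for 7 at 60 min, Cdkn1b at 60 min being the difference from the fit used here.

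The other genes of these pathways were read from lists chosen with earlier results of these data known, so their counts describe the libraries and are no independent support. Of 34 other p53 target genes, 29 were tested; 8 were higher and 1 lower at 30 min, and 9 were higher and 5 lower at 60 min. That is 31% and 48.3% called, against 8.18% and 25% of all genes, with a median log2 change of 0.07 and 0.09 against 0.01 and 0. Among the large changes at 60 min were those of the death receptor gene Fas (log2 3.66), the antiproliferative gene Btg2 (3.37), the polo-like kinase gene Plk2 (3.05) and the stress cytokine gene Gdf15 (2.85), with a smaller one for Plk3 (0.88). Each was called at 60 min (edgeR adjusted p at most 5.94e-06). Plk2 averaged 25.7 ± 2.45 CPM at 0 min, 132 ± 11.7 CPM at 30 min and 213 ± 14.2 CPM at 60 min, while Fas had 4, 10 and 4 counts at 0 min, 8, 4 and 10 at 30 min and 104, 54 and 76 at 60 min. The 5 lower at 60 min, named after their values were seen, were Polk (-0.5), Pidd1 (-0.34), Xpc (-0.32), Ppm1d (-0.2) and Tigar (-0.18), which encode a DNA polymerase, a death-domain protein, a DNA damage sensor, a phosphatase and a metabolic regulator. Also chosen after its values were seen, Bax, a pro-death p53 target, was not called in any comparison and averaged 127 ± 3.33 CPM at 0 min, 124 ± 1.48 CPM at 30 min and 121 ± 3.28 CPM at 60 min. Between 30 and 60 min 6 genes of this list rose and 4 fell, 34.5% of those tested against 16.5% of all genes. The call of Ppm1d at 60 min was lost under 2 of 15 alternatives (adjusted p up to 0.105). Pidd1 was the 1 lower gene at 30 min, a call lost under 6 of 15 (adjusted p up to 0.115). DESeq2 called 7 genes higher at 30 min. From 30 to 60 min the calls of Xpc and Tigar were lost under 8 and 6 of 15 (adjusted p up to 0.163 and 0.0857), and DESeq2 called 2 lower. The listed genes Eda2r and Rprm had 0 counts in every library.

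The gene for p53 itself, Trp53, changed little. It averaged 165 ± 5.99 CPM at 0 min, 166 ± 5.51 CPM at 30 min and 183 ± 7.75 CPM at 60 min (SD, n = 3 each), and was called at 60 min (log2 change 0.15, edgeR adjusted p = 0.0145), a call lost under 3 of 15 alternatives (adjusted p up to 0.127). Of 20 tested genes for p53 and its regulators, out of 22 listed, 1 was higher and 0 lower at 30 min. This was the ubiquitin ligase gene Rchy1 (0.26), whose call was lost under 7 of 15 alternatives, and it is 5% of the list against 8.18% of all genes. The count of 0 lower was the same at an unadjusted p under 0.05, by DESeq2 and by limma-voom. At 60 min 4 were higher, Rchy1 (0.28), the checkpoint kinase gene Atr (0.27), the acetyltransferase gene Kat5 (0.21) and Trp53, and 2 were lower, the p53-binding Ppp1r13b (-0.24) and the coactivator Ep300 (-0.16). That is 30% of the list against 25% of all genes, a share near the background. Of these calls, those of Ppp1r13b, Kat5 and Rchy1 were lost under 8, 3 and 1 of 15 alternatives (adjusted p up to 0.121, 0.0648 and 0.0501). Mdm4, the partner of Mdm2, was not called (log2 change -0.05 at 60 min). From 30 to 60 min 2 rose, Trp53 and Atr, and 4 fell, Ppp1r13b, Ep300 and, named after their values were seen, Atm and Trp53bp1, whose calls were lost under 6 and 13 of 15 alternatives. The calls of Trp53, Ppp1r13b and Ep300 between these times were lost under 5, 3 and 2. These 6 genes are 30% of the list, against 16.5% of all genes. The p53 relatives Trp63 and Trp73 had 0 counts.

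Few other inhibitors and drivers of the cell cycle were called. Of 6 other CDK inhibitor genes 5 were tested and 0 were called in any of the 3 comparisons by edgeR, DESeq2 or limma-voom, with 1 lower from 30 to 60 min at an unadjusted p under 0.05. Cdkn1c had 0 counts. Of 20 G1/S cyclin, CDK, Rb and E2F genes 1 was higher at 30 min, E2f2 (log2 0.18, a call lost under 9 of 15 alternatives). At 60 min 1 was higher, E2f3 (0.11, likewise lost under 9), and 1 was lower, the cyclin D1 gene Ccnd1, with 105 ± 4.6 CPM at 60 min against 118 ± 2.8 CPM at 0 min (-0.17, edgeR adjusted p = 0.00547). These are 5% and 10% of the list, beside 8.18% and 25% of all genes; on plain library totals, without TMM, 10 of the 20 genes were called in some comparison, against 3 here. From 30 to 60 min Ccnd1 and E2f2 fell, 10% of the list against 16.5% of all genes, and the call of Ccnd1 was lost under 4 of 15 alternatives (adjusted p up to 0.0965).

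In the p38 and JNK cascade, through which Gadd45 proteins act, 10 of 12 listed genes were tested. Map2k3, a kinase that switches on p38, was higher at 30 min (0.23, edgeR adjusted p = 0.00126), higher at 60 min (0.57) and rose from 30 to 60 min (0.34), and no other gene was called against 0 min. The p38 gene Mapk14 fell from 30 to 60 min (-0.11), a call lost under 10 of 15 alternatives. The shares called were 10% at 30 min, 10% at 60 min and 20% between these times, against 8.18%, 25% and 16.5% of all genes. Map3k4, the kinase that Gadd45 proteins bind, averaged 62.7 ± 3.59 CPM at 0 min, 62.3 ± 1.13 CPM at 30 min and 59.8 ± 2.81 CPM at 60 min and was not called. Mapk10 had 0 counts.

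Of 14 FoxO and FoxO-linked genes 11 were tested; 4 were higher and 1 lower at 30 min, and 5 were higher and 1 lower at 60 min (45.5% and 54.5% called, against 8.18% and 25% of all genes). The call of Cited2 at 30 min was lost under 1 of 15 alternatives. The higher ones were Irs2, an insulin receptor substrate (2.06 at 60 min), the pro-death gene Bcl2l11 (2.03), the repressor gene Bcl6 (0.71, not called at 30 min), Cited2 (0.6) and Klf2 (0.53). The lower one was Txnip (-1.18). Klf2 was higher at 30 min (1.25) and fell from 30 to 60 min (-0.72), and the list median at 60 min was -0.01 against 0 over all genes. Sesn3 and Pdk4 had 0 counts.

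**Figure D4:**
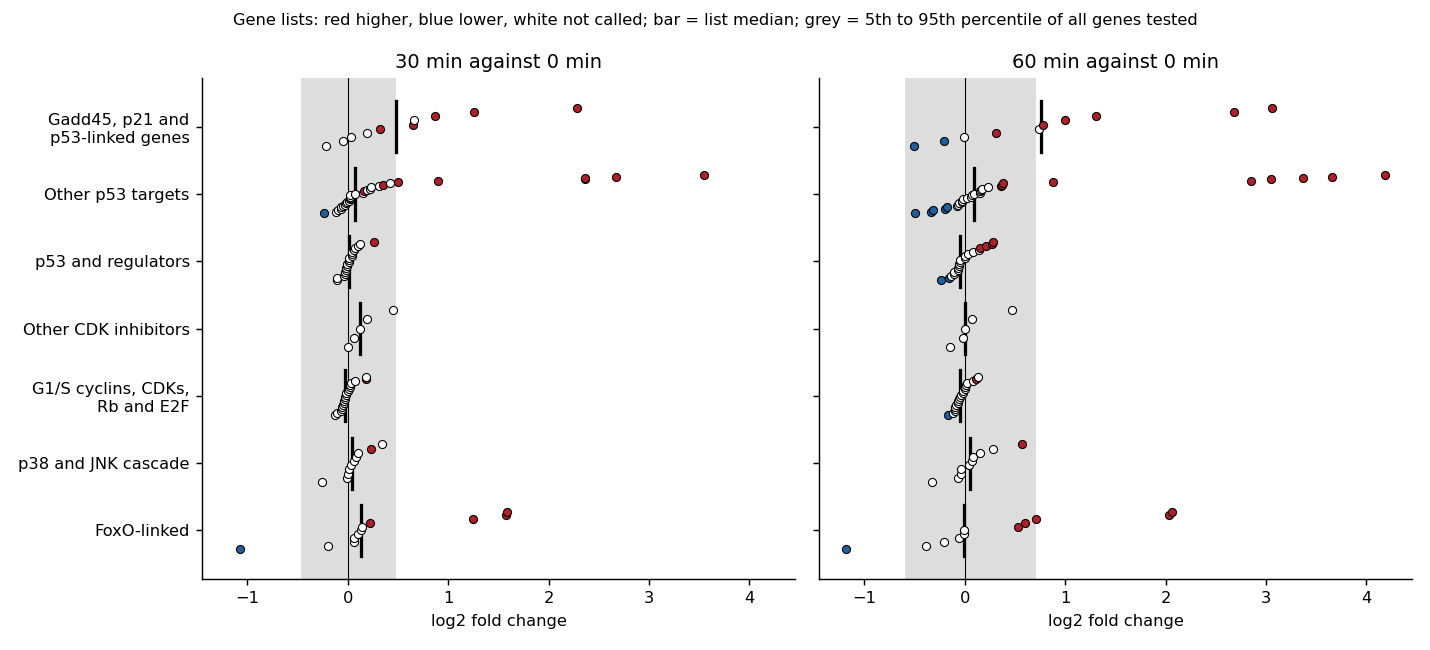
edgeR log2 fold changes of the tested genes of the 10-gene set (top row) and of 6 pathway lists at 30 min (left) and 60 min (right) against 0 min; points are genes (red called higher, blue called lower, white not called), black bars list medians and the grey band the 5th to 95th percentile of all 14246 genes. In the top row Gadd45a (3.06) and Cdkn1a (2.68) stand apart at 60 min, in the second row Fas (3.66), Btg2 (3.37), Plk2 (3.05) and Gdf15 (2.85) are among those that do so, beside a list median of 0.09, and the cyclin, CDK, Rb and E2F genes stay inside the band.

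For the 7 members with a mean of at least 5 CPM and a call in any comparison, the genes with the most similar course were sought among 9958 others of at least that level. Similarity was the root mean square difference over the 9 libraries in log2 CPM relative to each gene's own 0 min mean and is a description with no test; both genes of a pair were read in the same libraries. Nearest to Cdkn1a were the AP-1 genes Fosl2 (difference 0.0493) and Junb (0.144) and the LPS co-receptor gene Cd14 (0.175). Nearest to Gadd45a were the bacterial sensor gene Nod2 (0.146), the repressor gene Prdm1 (0.157) and the costimulatory receptor gene Cd40 (0.262). Nearest to Mdm2 were Lacc1 (0.0448), Gpr84 (0.0652) and C9orf72 (0.0702). For Ccng2 they were Gm13657 (0.12), Klf4 (0.132) and Snx20 (0.149), and for Sesn1 Apobec1 (0.0686), Fgd4 (0.0747) and Gpr183 (0.0799). Gadd45b lay nearest to Gm44260 (0.0552), Zfp523 (0.0949) and Gm37738 (0.0973), and Cdkn1b to Gm44291 (0.07), Tmem181b-ps (0.0734) and Bmt2 (0.0781). None of these 7 members was among the 3 nearest of another, which says little with 9958 genes searched. Gadd45g and Trp53inp1 lay below 5 CPM and could not be found.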

How the data were processed

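RNA-seq of total RNA after removal of ribosomal RNA was read from the deposited table of expected counts per gene, made by the authors with bcl2fastq 2.20, cutadapt 1.18, STAR 2.7.0f, Picard 2.18.26 and RSEM 1.3.1 on mm10, per the submitters' processing notes; for the annotation, the settings and the strand rule the entry is: not given in the sources used here. The authors' deposited DESeq2 tables give a log2 fold change, p-values, a mean normalised signal and a test score per gene. Expected counts were rounded and tested with edgeR 4.0.16 (quasi-likelihood, TMM, filterByExpr defaults) in R 4.3.3, all 9 libraries in 1 fit with time as the only term, and Benjamini-Hochberg adjustment over 14246 genes at 0.05. Alternatives used DESeq2 1.42.0, limma-voom 3.58.1, other scaling, no filter, a replicate block, or 1 library fewer. The code was tested on simulated data with known changes. Nothing beyond the term biological replicate says how far the libraries were separate cultures, so p-values measure the spread between these libraries. No 2 libraries agreed within sampling noise. Gene positions and lengths are from GENCODE M21 on GRCm38, and promoter sequences from RefSeq on GRCm38.p6. The 10 genes and the pathway lists were chosen with earlier results of these data known. From each list the genes called in any comparison were named by the size of their 60 min change, up to 6, with any gene at 0 counts; some genes of the lists are counted but not reported by name here. Nearest courses used log2 CPM with a prior count of 2.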

Additional observations from a re-analysis of the deposited data

Results flagged for a closer look

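For 6 of the 10 genes the level at 60 min of LPS differed from that at 30 min by the direct test between those times (edgeR's quasi-likelihood test, adjusted over 14246 genes, of which 16.5% were called). Without libraries kept for these times without LPS, LPS and the passage of time cannot be told apart here. The difference on the log2 scale was 2.2 for Gadd45a (adjusted p = 4.97e-08), 0.99 for Mdm2 (5e-08), 0.52 for Gadd45b (0.000125) and 0.4 for Cdkn1a (0.00114). It was -0.46 for Sesn1 (0.000415) and -0.4 for Cdkn1b (0.000957). In each of the 6 genes all 3 libraries of 60 min lay on 1 side of all 3 libraries of 30 min. The changes at 30 and 60 min are read against the same 0 min libraries, which cancel out in the difference.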

How the results depend on the processing

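Of 450 alternative values for the 10 genes, 433 kept their direction and side of the threshold. In 8, all for Cdkn1b at 60 min, the call was lost. In 2 a call was gained, for Gadd45b at 30 min on plain library totals (-0.24, adjusted p = 0.0498) and Trp53inp1 at 60 min without 60 min replicate 1 (0.89, adjusted p = 0.0416). The other 7 changed sign and none was called. Each arose without 1 library, over which Ccng1 ranged from -0.01 to 0.07 at 30 min and from -0.05 to 0.03 at 60 min (0 and 0.01 between), Sesn1 from -0.11 to 0.02 at 30 min and Trp53inp1 from -0.06 to 0.24 between 30 and 60 min (-0.01 also below 0). The cause was not tested. The 10-gene counts with 1 library left out were 5 at 30 min, 7 to 9 at 60 min and 6 between them. For all genes they were 790 to 1194, 2804 to 3488 and 1651 to 2497, against 1166, 3562 and 2353. Libraries with the same replicate number showed no shared shift: none of 9 same-number correlations passed 0.1 (-0.06 to 0.01). This cannot tell whether they shared a culture or a day, which the labels do not say. With the replicate block 967, 3234 and 2108 genes and 5, 7 and 6 of the 10 were called. Plain library totals moved the share of higher calls to 45.9% at 30 min, 30.1% at 60 min and 37.5% between them, against 59.1%, 53.1% and 53.7% with TMM, and the median of all genes at 60 min to -0.07.

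Over the 3 comparisons, plain totals called 10 of the cyclin, CDK, Rb and E2F genes (3 with TMM) and 1 other CDK inhibitor gene (0 with TMM). In the p38 and JNK list 1 gene in place of 2 was called with DESeq2, with no filter and with the replicate block. Without 1 library the lists held 13 to 16 p53 targets, 5 to 9 p53 regulators (5 without 60 min replicate 1), 2 to 4 cyclin, CDK, Rb and E2F genes, 0 to 1 CDK inhibitors (1 without 0 min replicate 3), 1 to 2 p38 and JNK genes and 6 to 7 FoxO-linked genes.

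Of 1530 values for the other named genes, 1395 held, 106 lost a call, 10 gained one and 19 changed sign, none of them called. On plain totals these were E2f3 (-0.01), Polk (-0.01) and Trp53 (-0.02) at 30 min and Rchy1 between 30 and 60 min (-0.02). Without 1 library the ranges that crossed 0 were 0 to 0.03 for E2f3, -0.04 to 0.01 for Ep300, -0.05 to 0.04 for Map3k4, -0.03 to 0.01 for Mdm4, -0.02 to 0.03 for Polk, -0.06 to 0.02 for Ppm1d, -0.02 to 0.04 for Trp53 at 30 min, and -0.04 to 0.08 for Rchy1 between 30 and 60 min. Counts of 13 to 35 per library for Trp53inp1 and 29 to 93 for Gadd45g limit their precision.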

Other observations

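The 10 genes differ in transcript structure, given here as values with no test. On the main GENCODE M21 transcript the 3 Gadd45 genes have 4 exons each and span 1791 to 2311 bases, against a median of 7 exons and 16640 bases over 20729 protein-coding genes. Cdkn1a spans 6947 bases in 3 exons, Cdkn1b 5113 bases in 2, Mdm2 21884 bases in 12 and Sesn1 20986 bases in 10. The pentamer ATTTA, the core of the AU-rich elements through which many early-response transcripts are destabilised, occurs in the 3′ UTR 8 times in Mdm2, 4 times in Cdkn1a, 2 times in Gadd45a and 0 times in Gadd45b and Gadd45g. The median gene holds 1, 44.4% of genes hold at least 2 and 9.39% hold at least 8. These 3′ UTRs differ in length, with 1335 bases in Mdm2, 1334 in Cdkn1a, 563 in Gadd45a, 558 in Gadd45b and 489 in Gadd45g. Pooled over protein-coding genes the rate is 1.94 per kb. Trp53inp1 holds 8 copies, Ccng2 6 and Sesn1 2. Cdkn1b, which fell from 30 to 60 min, holds 10 copies in 3439 bases, and Ccng1, which was not called, holds 8 in 2316 bases.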
